A study of Mus musculus with 4 samples.

Results

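The proteasome is the protease that degrades most short-lived proteins of the cell. Its genes were taken as every gene whose symbol begins with Psm, a letter from a to g and a digit, and which the array measured with a probe set (a group of probes for one transcript) assigned to that gene alone. This gave 48 genes of 12393 measured. Of these, 46 encode subunits, activators, regulators or assembly factors of the proteasome. The other 2, Psmc3ip and Psme3ip1, carry the letters because their proteins bind a subunit or an activator. Psmb11 had no probe set here, and Psme2 shared its only one with a near-identical gene, so neither is reported.

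RNA of the proximal intestinal epithelium was measured on 4 arrays; the mice were C57BL/6 and 4 to 6 weeks old. The stem group (2 arrays) was Lgr5(hi) stem cells of wild type mice, sorted by flow cytometry. The enterocyte group (2 arrays) was villus cells, released with EDTA, of mice whose intestinal epithelium carried a conditional knockout of Atoh1. Atoh1 is the transcription factor that secretory cells require, and its loss was meant to leave a villus of enterocytes. Tamoxifen, 1 mg per day for 5 days with a wait of 5 days, is stated in the labels of all 4 samples, wild type included. The Cre driver, the deleted part of Atoh1 and the number of animals behind each array are not given in the sources used here. Cell type, genotype and isolation differ between the groups together and cannot be told apart. The arrays are labelled biological replicates, but nothing says whether they came from separate animals, so p-values measure only the spread between these arrays.

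The core of the proteasome, the 20S particle, is a barrel of 4 stacked rings. The outer rings are built of alpha subunits (Psma genes) and the inner rings of beta subunits (Psmb genes), of which Psmb6, Psmb7 and Psmb5 carry the active sites. Interferon induces 3 replacements, Psmb9, Psmb10 and Psmb8, which form the immunoproteasome and favour peptides that fit MHC class I. The 19S cap, made of ATPase subunits (Psmc) that unfold the substrate and non-ATPase subunits (Psmd) that bind and strip ubiquitin, opens the gate of the core. Psme proteins are other caps of the core, Psmf1 modulates it, and the Psmg chaperones with Pomp assemble it. In the intestine, proliferating crypt cells make protein at a high rate, and epithelial cells display class I peptides to the lymphocytes that lie between them.

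Levels are given as log2 of the deposited intensity, and differences as enterocyte minus stem on the log2 scale with the standard error of limma (n = 2 arrays per group). Lgr5, the sort gene of the stem group, and Atoh1, the gene targeted in the enterocyte group, were both lower in the enterocyte arrays. Cell type differs too, so the level of Atoh1 does not show the knockout on its own. Lgr5 was 11.33 and 10.96 in the stem arrays against 6.92 and 6.09 in the enterocyte arrays, and Atoh1 was 7.43 and 7.71 against 5.06 and 5.28. All 9 measured enterocyte markers were higher, and all 8 measured stem cell markers lower, in the enterocyte arrays. Levels under 6.84, the 90th percentile of 24 genes of other organs, are called below background. The villus cells carried more RNA of intraepithelial lymphocyte markers: of 18 markers 14 rose and 0 fell. Their summed intensity was 10.21 and 10.53 (log2) in stem arrays against 13.23 and 13.64 in enterocyte arrays, and 15 markers were below background in the stem and 4 in the enterocyte group. In control probe sets along 1 transcript, the 3′ signal exceeded the 5′ signal by 1.70 and 1.92 for Gapdh in the stem arrays, against 0.15 and 0.17 in the enterocyte arrays. For Actb these values were 2.06 and 2.10 against 0.56 and 0.50. The part of these control signals in the differences below was not tested.

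Promoter sequences from RefSeq (GRCm38.p6) were matched by symbol for 40 of the 48 genes. Shown first are the 100 bases before the start of 3 assembly chaperone genes, whose RNA fell together, and of 2 genes for active-site subunits that moved in opposite directions. Capitals mark matches to the motifs named after them, and all are written 5′ to 3′ on the strand of the gene.
Psmg1, chr16:95990961-95991060, minus strand: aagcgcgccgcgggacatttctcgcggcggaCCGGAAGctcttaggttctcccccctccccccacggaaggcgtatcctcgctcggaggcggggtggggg
Psmg3, chr5:139826895-139826994, minus strand: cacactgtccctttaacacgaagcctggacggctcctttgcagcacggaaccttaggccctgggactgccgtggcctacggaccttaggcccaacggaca
Psmg4, chr13:34162864-34162963, plus strand: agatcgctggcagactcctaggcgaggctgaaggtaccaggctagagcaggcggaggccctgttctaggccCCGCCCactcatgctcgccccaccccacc
Psmb5, chr14:54617996-54618095, minus strand: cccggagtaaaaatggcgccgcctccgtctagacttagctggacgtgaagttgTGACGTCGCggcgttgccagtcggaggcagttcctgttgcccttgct
Psmb6, chr11:70525257-70525356, plus strand: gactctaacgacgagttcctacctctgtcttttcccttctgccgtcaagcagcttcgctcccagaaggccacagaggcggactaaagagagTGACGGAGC

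Motifs were searched on both strands in windows from 250 bases before to 50 after the start. The ETS site CCGGAAG stood in 39.5% of the 43 windows of these genes and in 8.86% of all 32851 windows, noncoding genes included. The GC box GGGCGG stood in 53.5% against 35.7%, and the CCAAT box, searched as CCAAT, in 34.9% against 37.4%. The antioxidant response element, searched as TGACNNNGC, is bound by Nfe2l1 and Nfe2l2, the factors known to drive proteasome genes; it stood in 14% of the windows against 12.4%, in Psmb5, Psmb6, Psmc6, Psmd9, Psmd12 and Psme4. The E-box CACGTG stood in 11.6% against 7.15% and the interferon element, searched as GAAA and GAAA with any 2 bases between, in 11.6% against 3.44%. Matches of different motifs overlapped 2 times. A match is letters in a window, not a bound site. Of the genes with the antioxidant response element shown above, Psmb5 was higher and Psmb6 lower in enterocyte arrays, as given below. The part of the element in these levels was not tested.

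As a family, proteasome genes differed less between the groups than most well-detected genes. In enterocyte arrays, 5 of the 48 were higher and 13 lower, past an adjusted p of 0.05 by limma, and 30 did not pass. That is 37.5% called, against 40.6% of all genes tested. In the single directions 10.4% of the 48 were higher, against 18.2% of all genes, and 27.1% were lower, against 22.4%. The shares called are thus near the background and are not a result about the family. The size of the differences was small: their median absolute value was 0.305, and their median was -0.147, against 0.378 and -0.00261 over all genes. All genes include many below background, which are hard to call. In a fit on the 6915 genes at or above background, 67.3% were called, and of the 46 proteasome symbols among them 34.8% (6 higher and 10 lower, where 29.7% and 37.5% of all were). The median absolute difference there was 0.305 for the proteasome symbols and 0.787 for all genes, and 15.2% against 40% differed by 1 or more. These are bulk RNA pools, in which fewer cells of a type and less RNA per cell cannot be told apart. Arrays were also centred on the median level of 9 reference genes. That median was Sdha, a mitochondrial enzyme, in each array, at 12.27 and 11.86 in stem arrays against 12.69 and 12.68 in enterocyte arrays, so this setting is a centring on 1 gene. Under it the median of all genes moved to -0.62, with 1148 higher and 6700 lower, and 0 proteasome genes were higher and 31 lower, at a median of -0.765. Every difference between 0 and the shift turned: 18 of the 48 were above 0 as deposited and 2, Psmd8 and Psmd13, after centring on Sdha. In a setting added after the data were seen, each reference gene was first centred on its own mean. The shift between the groups was then 0.00276, 18 genes stayed above 0, and 5 were called higher and 11 lower. Over all genes 2484 were called higher and 3119 lower in that setting. The reference genes themselves differed by -1.47 (Polr2a) to 0.82 (Pgk1), so this small shift does not mean that they were flat. Groups did not overlap in 41 of the 48 genes (85.4%), against 65.3% of all genes.

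**Figure D1:**
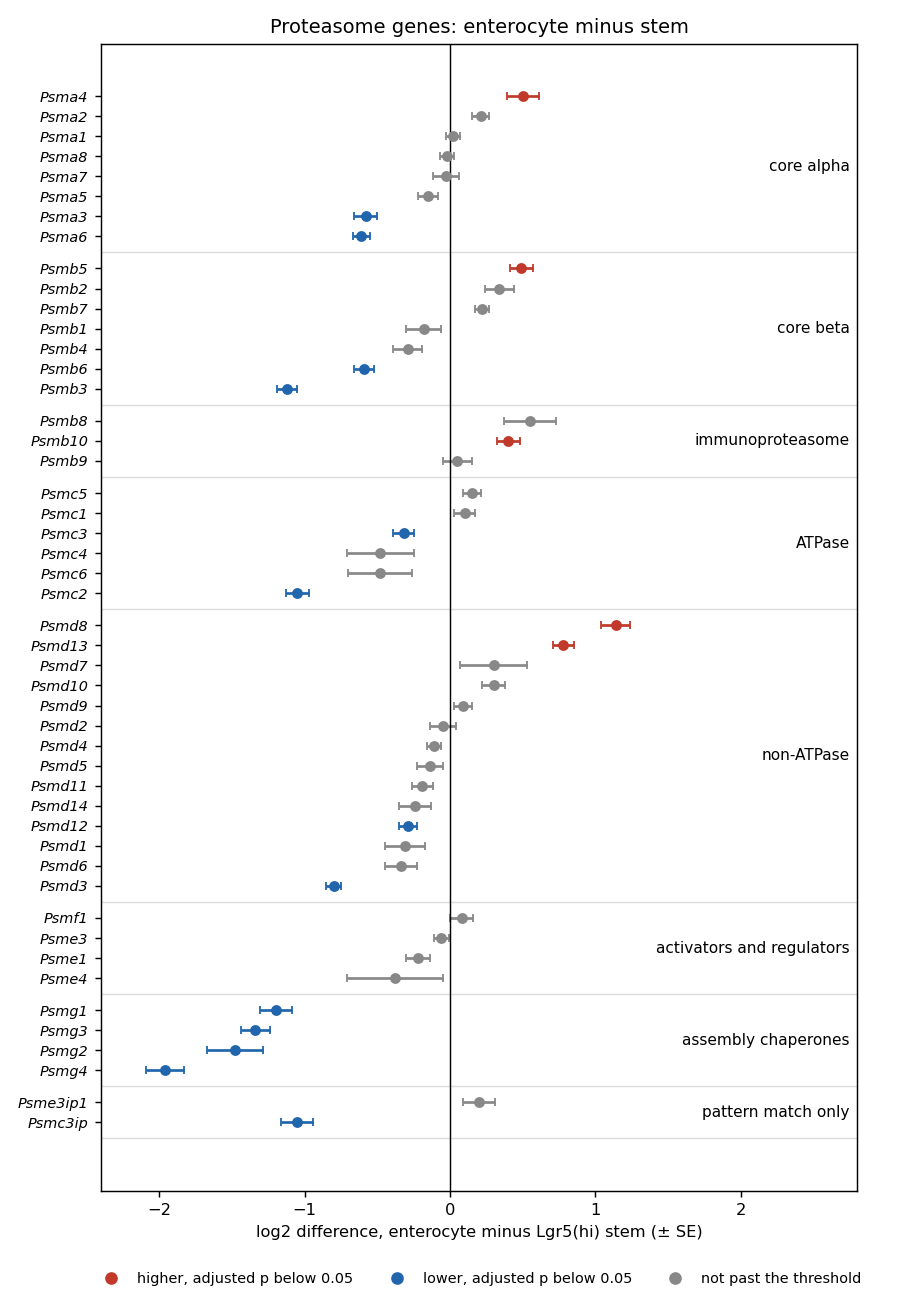
Log2 difference (enterocyte minus stem, horizontal axis) of each of the 48 genes, with bars for the standard error of limma (n = 2 arrays per group), grouped by role. Most points lie within 0.5 of 0, the 4 assembly chaperones lie between -1.96 and -1.20, and Psmd8 at 1.14 is the largest increase. The red points of Psma4, Psmb5 and Psmb10 turned below 0 when arrays were centred on Sdha, but not when each reference gene was first centred on its own mean.

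The largest differences were in the assembly chaperones, which pair up to place the alpha subunits into the first ring and are not part of the finished core. All 4 fell, where 22.4% of all genes were called lower, and 37.5% of those at or above background. In each of the 4 the groups were apart with no overlap, as they were in 65.3% of all genes. Psmg4 was 9.68 and 9.62 in stem arrays against 7.84 and 7.54 in enterocyte arrays, 3.89-fold lower (-1.96 ± 0.13 SE, adjusted p = 0.00463). Psmg3, its partner in the second chaperone pair, was 10.04 and 10.09 against 8.83 and 8.61, 2.53-fold lower (-1.34 ± 0.10 SE, adjusted p = 0.00584). These 2 genes thus stood far below their stem level in both enterocyte arrays.

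The first pair gave the same picture. Psmg1 was 10.57 and 10.5 against 9.45 and 9.20, 2.30-fold lower (-1.20 ± 0.11 SE, adjusted p = 0.00787). Psmg2 was 9.95 and 9.74 against 8.57 and 8.16, 2.78-fold lower (-1.48 ± 0.19 SE, adjusted p = 0.0134), and its second probe set gave -0.91 (adjusted p = 0.0182 in a fit on probe sets). Psmg1 carried an ETS site before its start (shown above) and Psmg3 one after it. In every gene the second enterocyte array was the lower. The median of the 4 was -1.41, and it was -2.03 after centring on Sdha. The calls need 2 arrays in each group: with 1 array left out, the fit takes its spread from the other group alone and calls were lost. The median of the 4 was then -1.37 or -1.45 without stem replicate 1 or 2. It was -1.57 or -1.25 without enterocyte replicate 1 or 2.

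Pomp, which joins the core at a later step and is degraded as its first substrate, moved the other way. It was 11.34 and 11.24 in stem arrays against 12.02 and 12.11 in enterocyte arrays, 1.71-fold higher (0.78 ± 0.07 SE, adjusted p = 0.00741). It was 0.728 to 0.822 when 1 array was left out, fits in which calls were lost as above. Pomp was 0.16 after centring on Sdha (adjusted p = 0.607). Pomp was thus higher, and the 4 Psmg genes lower, in the same arrays as deposited.

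**Figure D2:**
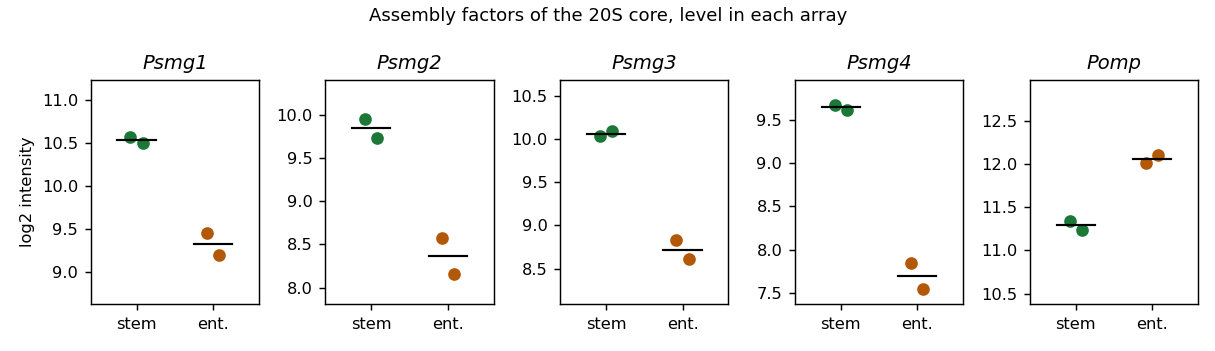
Log2 intensity of Psmg1 to Psmg4 and of Pomp, with a dot for each array (stem in green, enterocyte, ent., in orange), a line at the group mean and vertical axes of equal span. The enterocyte arrays lie below the stem arrays for the 4 Psmg genes (for Psmg4 7.84 and 7.54 against 9.68 and 9.62) and above them for Pomp.

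Among the 8 genes of the alpha ring, which forms the gate of the core, 1 rose and 2 fell, while 5 did not pass. This is 37.5% called, near the 40.6% of all genes, with a median of -0.03. In the fit on genes at or above background 42.9% of the 7 alpha genes there were called, against 67.3% of all. Psma4 was 11.63 and 11.86 in stem arrays against 12.17 and 12.30 in enterocyte arrays, 1.41-fold higher (0.50 ± 0.11 SE, adjusted p = 0.0483); it was -0.12 after centring on Sdha, and its call was lost with quantile normalization (0.36, adjusted p = 0.0806) and with other probe set rules. Psma2 was 11.71 in both stem arrays against 11.96 and 11.89 in enterocyte arrays (0.21 ± 0.06 SE, adjusted p = 0.0712). Both genes were higher in each enterocyte array than in any stem array, but groups did not overlap in 65.3% of all genes. Of the 2 only Psma4 passed the threshold.

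Psma3 was 12.45 in both stem arrays against 11.80 and 11.95 in enterocyte arrays, 1.49-fold lower (-0.58 ± 0.08 SE, adjusted p = 0.015). Psma6 was 12.88 and 12.90 against 12.32 and 12.25, 1.52-fold lower (-0.61 ± 0.06 SE, adjusted p = 0.00812). Its second bright probe set gave 0.27 ± 0.08 SE (adjusted p = 0.0882), so the fall of Psma6 held for 1 of its 2 probe sets above background. Psma1, Psma5 and Psma7 differed by 0.02, -0.15 and -0.03. Psma8, a form of the alpha ring known from testis, was below background in every array, at 3.97 to 4.01.

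Among 7 constitutive genes of the beta ring 1 rose and 2 fell, while 4 did not pass. This is 42.9% called, near the 40.6% of all genes. In the fit on genes at or above background it was also 42.9%, against 67.3% of all. The median of -0.17 was -0.032 without stem replicate 1 and -0.318 without stem replicate 2. It was 0.219 with the dimmest probe set of each gene and 0.211 with plain _at probe sets, so it has no settled sign. Psmb3, a structural subunit, was 12.67 and 12.77 in stem arrays against 11.62 and 11.59 in enterocyte arrays, 2.17-fold lower (-1.12 ± 0.07 SE, adjusted p = 0.00405). Its other probe set gave 0.36 ± 0.12 SE (adjusted p = 0.113). The brighter probe set alone thus showed a fall. Psmb2, also structural in the barrel, was 10.59 and 10.37 against 10.84 and 10.79 (0.34 ± 0.10 SE, adjusted p = 0.0907). Psmb1 and Psmb4 differed by -0.18 and -0.29 and did not pass. With quantile normalization Psmb4 was called lower (-0.422, adjusted p = 0.0412).

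The 3 active-site subunits did not move together. Psmb5, the chymotrypsin-like site, was 10.44 and 10.30 in stem arrays against 10.84 and 10.88 in enterocyte arrays, 1.4-fold higher (0.49 ± 0.08 SE, adjusted p = 0.0205); it was -0.13 after centring on Sdha. Psmb6, the caspase-like site, was 11.76 and 11.88 against 11.22 and 11.24, 1.5-fold lower (-0.59 ± 0.07 SE, adjusted p = 0.0113). The promoters of both carry the antioxidant response element shown above. Psmb7, the trypsin-like site, was 9.17 and 9.15 against 9.40 and 9.37 (0.22 ± 0.05 SE, adjusted p = 0.0527), just short of the threshold.

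Of the immunoproteasome genes 1 of 3 rose and 2 did not pass (33.3% called, against 40.6% of all genes). Their median of 0.40 was -0.22 after centring on Sdha and 0.394 when each reference gene was first centred on its own mean. The count was 2 when genes below background were left out (Psmb8, adjusted p = 0.0462) and 0 with quantile normalization, where Psmb10 was 0.266 (adjusted p = 0.0907). Psmb10, which replaces Psmb7, was 11.77 and 11.73 in stem arrays against 12.22 and 12.08 in enterocyte arrays, 1.32-fold higher (0.40 ± 0.08 SE, adjusted p = 0.0317). It was -0.22 after centring on Sdha. Psmb8, which replaces Psmb5, was 11.11 and 11.52 against 11.93 and 11.80 (0.55 ± 0.18 SE, adjusted p = 0.0976), with the first stem array low. Psmb9, which replaces Psmb6, was 10.73 and 10.83 against 10.93 and 10.73 (0.05 ± 0.10 SE, adjusted p = 0.722), and its groups overlapped. All 3 genes were at log2 10.73 or more in every array, far above background in stem cells as well. Lymphocytes carry the immunoproteasome constitutively, and their markers rose in the same arrays, as given above; their part in these values was not tested.

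The inducible subunits were set against the constitutive ones they replace by the change in their log2 difference within each array. For Psmb9 against Psmb6 it rose by 0.64 (SD 0.01 in the stem and 0.16 in the enterocyte arrays), for Psmb10 against Psmb7 by 0.18 (SD 0.01 and 0.07), and for Psmb8 against Psmb5 by 0.06 (SD 0.39 and 0.12). In the exact permutation test, two-sided, these gave p = 0.333, 0.333 and 1, or 0.5, 0.5 and 1 adjusted over the 3 pairs. With 2 arrays against 2 no p can go below 0.333. For Psmb9 the change came with a lower Psmb6, while Psmb9 itself stayed within its spread.

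**Figure D3:**
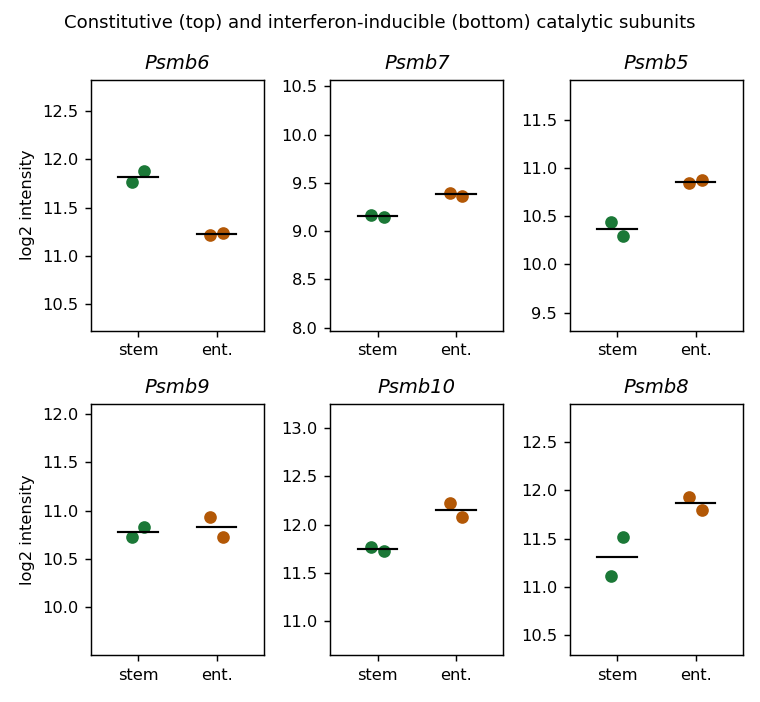
Log2 intensity of the constitutive active-site subunits Psmb6, Psmb7 and Psmb5 (top) and of the interferon-inducible subunit that replaces each (bottom: Psmb9, Psmb10, Psmb8), with a dot for each array, a line at the group mean and vertical axes of equal span. Psmb6 is lower in both enterocyte arrays (11.22 and 11.24 against 11.76 and 11.88), and the groups of Psmb9 overlap.

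Psmb9 and Tap1, a subunit of the transporter that carries proteasome products into the endoplasmic reticulum, lie head to head on chromosome 17 and share the stretch between their starts. It is shown because both genes can be read against the same sequence. It is 225 bases long (chr17:34187331-34187555, GRCm38.p6, written in the direction of Tap1), and capitals mark a CCAAT box and a GC box.
Psmb9_Tap1: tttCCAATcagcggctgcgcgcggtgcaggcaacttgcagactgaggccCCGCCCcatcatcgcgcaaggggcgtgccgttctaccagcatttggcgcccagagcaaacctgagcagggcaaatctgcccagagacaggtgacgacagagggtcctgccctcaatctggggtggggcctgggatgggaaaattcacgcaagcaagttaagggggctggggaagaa
Tap1 was 9.28 and 9.69 in the stem arrays and 9.28 in both enterocyte arrays (-0.21 ± 0.17 SE, adjusted p = 0.418). Neither gene of this shared promoter passed the threshold.

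Other genes of class I presentation included several that rose. Of 16 measured genes of that list 7 rose, 0 fell and 9 did not pass (43.8% higher, against 18.2% of all genes), with a median of 0.28. In the fit on genes at or above background 46.7% of the 15 list genes there were higher, against 29.7% of all; this difference was not tested. B2m, the light chain of class I molecules, was 12.58 and 12.72 in stem arrays against 14.06 and 14.17 in enterocyte arrays, 2.76-fold higher (1.46 ± 0.08 SE, adjusted p = 0.00398). H2-D1, a class I heavy chain, was 11.55 and 11.75 against 13.57 and 13.51, 3.71-fold higher (1.89 ± 0.10 SE, adjusted p = 0.00346). Of its other probe sets above background, those at 1.78 and 2.52 were called higher (adjusted p = 0.00416 and 0.00519 in a fit on probe sets), and another gave 0.13. Class I heavy chains are near-identical, so probes may be shared among them.

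Ifngr2, a chain of the interferon gamma receptor, was 9.79 and 10.24 against 11.99 and 12.10, 4.09-fold higher (2.03 ± 0.19 SE, adjusted p = 0.00755). Interferon gamma is the classical inducer of Psmb8, Psmb9 and Psmb10. These differed by 0.55, 0.05 and 0.40, and Psmb10 was called higher, as given above. The part of interferon gamma in any of these values was not tested. With 1 array left out, fits in which calls were lost as above, B2m was 1.4 to 1.53, H2-D1 1.79 to 1.99 and Ifngr2 1.81 to 2.26. After centring on Sdha 3 genes of the list were higher and 5 lower. Lymphocytes also carry class I molecules, and the marker values above stand beside these too.

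The ATPase ring of the cap, which threads substrates into the core, had 0 rises, 2 falls and 4 genes that did not pass. Of these genes 33.3% were lower, against 22.4% of all genes. In the fit on genes at or above background 16.7% of the 6 were lower, against 37.5% of all. The median of the 6 ATPase genes, -0.40, was -0.238 without enterocyte replicate 2 and 0.0286 with plain _at probe sets. Psmc2 was 12.10 and 12.24 in stem arrays against 11.13 and 11.12 in enterocyte arrays, 2.07-fold lower (-1.05 ± 0.08 SE, adjusted p = 0.00522). Its other bright probe set gave -0.17 ± 0.06 SE (adjusted p = 0.151), so the size of this fall rests on 1 probe set. Psmc3 differed by -0.32 ± 0.07 SE (adjusted p = 0.0471), a call lost when genes below background were left out (adjusted p = 0.0505).

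Psmc4 was 11.56 and 11.78 against 11.46 and 10.93 (-0.48 ± 0.23 SE, adjusted p = 0.216). Psmc6 was 10.94 and 10.84 against 10.14 and 10.68 (-0.48 ± 0.22 SE, adjusted p = 0.202). In both the enterocyte arrays lay far apart, the second low for Psmc4 and the first low for Psmc6. Psmc5 was 10.63 in both stem arrays against 10.81 and 10.74 in enterocyte arrays (0.15 ± 0.06 SE, adjusted p = 0.148), and Psmc1 was 9.78 and 9.82 against 9.84 and 9.96 (0.10 ± 0.07 SE, adjusted p = 0.36).

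Among 14 non-ATPase genes 2 rose and 2 fell, while 10 did not pass (28.6% called, against 40.6% of all genes), with a median of -0.13. In the fit on genes at or above background 21.4% of the 14 were called, against 67.3% of all. Psmd8, a lid subunit next to the deubiquitinase, was 10.06 and 9.85 in stem arrays against 11.10 and 11.08 in enterocyte arrays, 2.20-fold higher (1.14 ± 0.10 SE, adjusted p = 0.00655). Psmd13, also of the lid, was 8.90 and 8.86 against 9.61 and 9.72, 1.72-fold higher (0.78 ± 0.07 SE, adjusted p = 0.00702), and its second probe set gave 0.48 (adjusted p = 0.0195). Both remained above 0 after centring on Sdha, at 0.52 and 0.16, where neither passed.

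Another lid subunit went the other way. Psmd3 was 10.62 and 10.66 in stem arrays against 9.85 and 9.83 in enterocyte arrays, 1.74-fold lower (-0.80 ± 0.05 SE, adjusted p = 0.00479). Psmd12, of the lid as well, differed by -0.29 ± 0.06 SE (adjusted p = 0.0433, and 0.0601 when genes below background were left out). Psmd6 was 11.38 and 11.14 against 10.98 and 10.88 (-0.34 ± 0.11 SE, adjusted p = 0.11). It was lower in both enterocyte arrays, where groups did not overlap in 65.3% of all genes, and did not pass the threshold. With quantile normalization it passed (-0.475, adjusted p = 0.0301). Genes of 1 complex thus included the largest rise and one of the larger falls among the cap subunits.

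The enzyme, receptors and scaffolds of the cap did not pass on their brightest probe sets. Psmd14, the deubiquitinase of the lid, differed by -0.24 ± 0.11 SE (adjusted p = 0.199). The ubiquitin receptor Psmd4 differed by -0.11, but its second bright probe set was higher at 0.47 (adjusted p = 0.0261). The scaffold subunits Psmd1 and Psmd2 differed by -0.31 and -0.05, and Psmd11 by -0.19 on its brightest probe set and -0.61 (adjusted p = 0.0263) on another. With quantile normalization the brightest probe set of Psmd11 passed as well (-0.342, adjusted p = 0.0458). Psmd7, the partner of Psmd14, differed by 0.30 ± 0.23 SE on its brightest probe set, with the first stem array low at 9.22, and by -1.43 (adjusted p = 0.0093) on a dimmer one. Psmd5, Psmd9 and Psmd10, which assemble the base of the cap, differed by -0.14, 0.09 and 0.30, and none passed.

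Of the 4 activators and regulators measured, 0 rose, 0 fell and 4 did not pass, with a median of -0.14. Of all genes 40.6% were called, and of those at or above background 67.3%. Psme1, a subunit of the interferon-inducible cap, was 12.19 and 12.10 in stem arrays against 11.98 and 11.87 in enterocyte arrays (-0.22 ± 0.08 SE, adjusted p = 0.114). With quantile normalization it was called lower (-0.352, adjusted p = 0.0434). Psme3, the nuclear cap, was 8.61 and 8.66 against 8.58 in both (-0.06 ± 0.05 SE, adjusted p = 0.485). Psme4, a large cap linked to histone degradation, was 10.78 and 10.62 against 9.91 and 10.73 (-0.38 ± 0.33 SE, adjusted p = 0.441). The gap of 0.81 between its enterocyte arrays was the widest between replicates of any of the 48 genes. Psmf1, a modulator of the core, was 7.91 in both stem arrays against 7.91 and 8.08 in enterocyte arrays (0.08 ± 0.08 SE).

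Several calls above depended on which probe set stood for the gene. Of the 48 genes 16 had more than 1 probe set above background. In 10 of them the signs of the difference disagreed, in 3 the differences spanned 1 or more, and in 0 were probe sets called in opposite directions. The widest spans were 1.73 for Psmd7, 1.48 for Psmb3 and 1.21 for Psme4. With only probe sets whose name ends in a plain _at, 40 of the genes were left, of which 2 rose and 7 fell, and the median was 0.03. Of all 10529 genes left in that setting 1838 rose and 1999 fell. The stem arrays had the larger 3′ over 5′ signal in the control probe sets, as given above; its part in these disagreements was not tested.

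**Figure D4:**
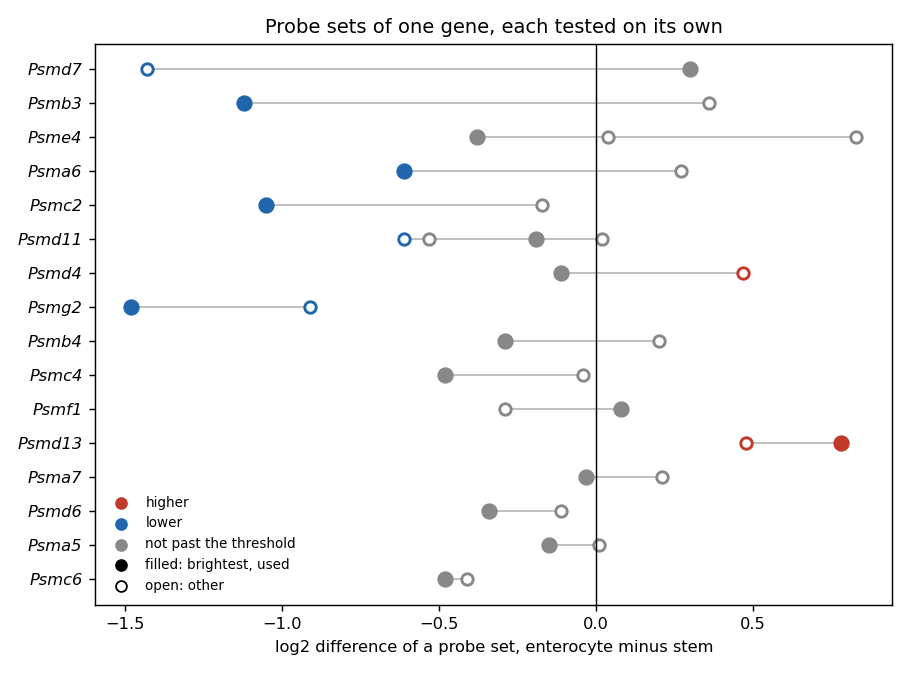
Log2 difference (enterocyte minus stem, horizontal axis) of each probe set above background for the 16 genes with more than 1, filled for the brightest probe set, open for the others, and coloured by its own call. The probe sets of Psmg2 are both lower and those of Psmd13 both higher, while those of Psmb3 and Psma6 lie on either side of 0.

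Genes that work beside the proteasome moved in both directions. Of 27 measured genes of ubiquitin delivery, proteasome regulation and transcription 7 rose, 7 fell and 13 did not pass (51.9% called, against 40.6% of all genes), with a median of -0.12; after centring on Sdha 1 rose and 17 fell. In the fit on genes at or above background 61.5% of the 26 list genes there were called, against 67.3% of all. Zfand2a, which binds the proteasome under stress, was 7.64 and 7.58 in stem arrays against 9.24 and 9.12 in enterocyte arrays, 2.96-fold higher (1.57 ± 0.07 SE, adjusted p = 0.00332). Ube2d3, a ubiquitin-conjugating enzyme, was 11.29 in both stem arrays against 12.37 and 12.36 in enterocyte arrays, 2.11-fold higher (1.07 ± 0.05 SE, adjusted p = 0.00337). Both were higher in each enterocyte array than in any stem array, where groups did not overlap in 65.3% of all genes.

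Of the genes that fell, Bag6, a chaperone that hands misplaced membrane proteins to degradation, was 9.37 and 9.16 against 8.06 and 8.16, 2.23-fold lower (-1.16 ± 0.10 SE, adjusted p = 0.00715). Vcp, the segregase that extracts ubiquitinated proteins, was 12.85 and 12.90 against 11.80 and 11.91, 2.03-fold lower (-1.02 ± 0.07 SE, adjusted p = 0.00479). Its cofactor genes Nploc4 and Ufd1 differed by 0.68 ± 0.10 SE (adjusted p = 0.0176) and 0.31 ± 0.07 SE (adjusted p = 0.0403). The other probe set of Ufd1 gave -0.09. After centring on Sdha, Nploc4 was 0.06 (adjusted p = 0.844) and Ufd1 -0.306 (adjusted p = 0.31). Txnl1, a thioredoxin bound to the cap, was 12.41 and 12.44 against 11.34 and 11.24 on its brightest probe set (-1.14 ± 0.07 SE, adjusted p = 0.00407), and its next gave 0.05.

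The related factors Nfe2l1 and Nfe2l2 differed from each other in direction. Nfe2l2, the regulator of antioxidant genes, was 10.89 and 10.86 in stem arrays against 11.62 and 11.66 in enterocyte arrays, 1.70-fold higher (0.77 ± 0.06 SE, adjusted p = 0.00521). Nfe2l1, which raises proteasome genes when the proteasome is inhibited, was 9.17 and 9.18 against 8.89 and 8.68 (-0.39 ± 0.10 SE, adjusted p = 0.0568). Nfe2l1 passed when genes below background were left out (adjusted p = 0.0417) and when each reference gene was first centred on its own mean (0.0433). It also passed after centring on Sdha (-1.01, adjusted p = 0.000944), and was -0.49 without enterocyte replicate 1. Nfe2l2 lost its call after centring on Sdha (0.15, adjusted p = 0.627). Its difference was 0.785 without stem replicate 1 and 0.749 without stem replicate 2, fits in which every call was lost. The difference between the genes was not tested.

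The 2 genes that share only the symbol differed from each other as well. Psmc3ip, which acts with meiotic recombinases, was 7.14 and 7.23 in the stem arrays and below background in the enterocyte arrays at 6.02 and 6.24, at least 1.27-fold lower (-1.05 ± 0.11 SE, adjusted p = 0.00885). The bound sets the brighter mean against the background level. Psme3ip1, a partner of Psme3, differed by 0.20 ± 0.11 SE (adjusted p = 0.287). Without both, and without Psma8, the calls were 5 higher and 12 lower.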

How the data were processed

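The members and lists were chosen with earlier results of these data known. The authors deposited a linear intensity for each probe set of 4 arrays, with RMA named per the submitters' processing notes; the version, and the scaling between arrays, are not given in the sources used here. Array medians lay between 102 and 111. Log2 was taken, with nothing added; the design allowed for linear values. The platform annotation gave 1 gene for 20380 of 22690 probe sets, several for 691 and did not list 1606; 29 had no match in RefSeq (GRCm38.p6) and 0 symbols changed. The 64 control probe sets were left out. The probe set with the highest mean stood for each gene. Differences were tested with limma 3.58.1 in R 4.3.3 (two-sided, Benjamini-Hochberg adjustment over 12393 genes, 2 residual and 1.23 prior degrees of freedom) and checked on simulated data. Replicates held exactly equal deposited values in 1268 genes of the stem and 1048 of the enterocyte group, 6 of the 48 among the former, which lowers the spread. Of 40 listed partner genes 27 were measured, of 19 presentation genes 16, of 20 lymphocyte markers 18, and of 11 reference genes 9. Array values are given for the active-site and Psme genes and for the 2 largest increases and decreases of each subgroup; in the partner lists, for the 3 largest called changes each way and preset genes. Nploc4, Psmd7 and other single values beyond that were chosen after values were seen. Alternatives covered the replicate block, each array left out, the probe set rule, the scaling, the background filter and the variance trend. The number of arrays limits the precision.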

Additional observations from a re-analysis of the deposited data

How the results depend on the processing

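Each comparison was repeated under the alternatives. With the replicate block 3 proteasome genes were higher and 11 lower, beside 2010 higher and 2557 lower over all genes. Psmb5 (adjusted p = 0.0545), Psmb10 (0.06), Psmc3 (0.11) and Psmd12 (0.089) lost their calls. The block changed no other call among the 48 genes. The replicate numbers do not pair the arrays (r = 0.05 over genes between the deviations of the first arrays). Leaving out 1 array gave 0 to 1 higher and 0 to 6 lower proteasome genes and 0 to 3 falls among the assembly chaperones, beside 0 to 663 higher and 0 to 1058 lower over all genes; both stem arrays decide this, since without either no gene was called. The partner list then had 0 to 3 rises and 0 to 4 falls and the presentation list 0 rises. The median of the 48 genes ranged from -0.147 to -0.104, of the ATPases from -0.387 to -0.238 and of the beta ring from -0.318 to -0.032.

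A scaling by the middle one of 9 reference genes, which was Sdha on every array, moved the median of all genes from -0.00261 to -0.62, with 1148 higher and 6700 lower. It gave 0 higher and 31 lower proteasome genes and medians of -0.765 (all 48), -0.643 (alpha), -0.793 (beta), -0.221 (immunoproteasome), -1.02 (ATPase), -0.745 (non-ATPase), -0.756 (activators) and -2.03 (assembly chaperones). The partner list had 1 rise and 17 falls, and the presentation list 3 and 5. Of the 18 genes above 0, 16 turned. Where a call was involved these were Psma1 (-0.602), Psma4 (-0.123), Psmb5 (-0.128), and Psmb10 (-0.221). Among partner genes Ufd1 (-0.306), Ube3c (-0.134), Tapbp (-0.189) and Irf1 (-0.168) turned, and Irf2 went from 0 to -0.618. The shift is the difference of Sdha itself. With each reference gene first centred on its own mean (added after the data were seen), the shift was 0.00276 and no sign among called genes turned. In that setting 5 proteasome genes were higher and 11 lower, without Psmc3 (adjusted p = 0.0657) and Psmd12 (0.0968). Over all genes it gave 2484 higher and 3119 lower. Quantile normalization gave 3 higher and 17 lower proteasome genes, beside 2436 higher and 2997 lower over all genes. Psma4 and Psmb10 lost their calls, while Psmb4 (adjusted p = 0.0412), Psmd6 (0.0301), Psmd11 (0.0458) and Psme1 (0.0434) were newly called lower. The medians were -0.259 (all 48), -0.172 (alpha), -0.332 (beta), -0.532 (ATPase) and -0.211 (non-ATPase), and the change for Psmb10 against Psmb7 was 0.0595.

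With the dimmest probe set of a gene the medians were -0.0357 (all 48), 0.0699 (alpha), 0.219 (beta) and -0.105 (ATPase), the partner list had 3 rises, the presentation list 1 fall, and Psmb3 (0.364) and Ufd1 (-0.0921) turned. With the mean over probe sets the medians were -0.0481 (all 48), -0.0428 (beta), -0.255 (ATPase) and -0.18 (non-ATPase). Without _x_at, _s_at and _a_at probe sets 2 of 40 genes were higher and 7 lower, beside 1838 higher and 1999 lower of all 10529 genes left. The medians were then 0.0296 (all 40), 0.206 (alpha), 0.211 (beta) and 0.0286 (ATPase). The presentation list had 3 rises and 1 fall, and Psma6 (0.275), Psmb3 (0.364), Txnl1 (0.0503) and Ufd1 (-0.0921) turned. Chosen after the data were seen, each further probe set on its own gave opposite signs for Psma6 (0.275), Psmb3 (0.364), Psmd4 (0.467) and Psmd7 (-1.43). Apart from the construction of each setting, the cause was not tested. The 4 assembly chaperones remained lower in every setting, and past the threshold in all that kept the 4 arrays.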

Other observations

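Replicates of the proteasome genes lay close together, with a median gap of 0.08 (log2) between the stem arrays and 0.11 between the enterocyte arrays. Gaps of 0.5 or more were found for 1 gene in the stem arrays, Psmd7, and for 3 in the enterocyte arrays, Psmc4, Psmc6 and Psme4. The enterocyte array that was low for Psmc6 and Psme4 was the first, and for Psmc4 the second.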
